A study of Mus musculus with 4 samples.

Results

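Kidney RNA was profiled in mice with a ligated bile duct (BDL), in which bile cannot leave the liver, and in sham-operated mice, both taken 2 weeks after surgery. Each group had 2 samples, which the series' design text calls biological replicates, and each RNA was hybridised alone to a 1-colour array. Genotype, strain, sex, age, the part of the kidney taken and the number of animals behind a sample are not given in the sources used here. Described here are 10 genes of the epithelial sodium channel (ENaC) and of the response to aldosterone, namely the channel subunit genes Scnn1a, Scnn1b and Scnn1g, the kinase gene Sgk1, the receptor gene Nr3c2, the enzyme gene Hsd11b2, the ubiquitin ligase gene Nedd4l, and the steroid-responsive genes Tsc22d3, Fkbp5 and Per1. They were chosen by name, and every non-control probe whose RefSeq accession belongs to 1 of them was taken. That gave 11 of the 55681 probes on the array, 1 for each gene and 2 for Nedd4l, out of 20656 gene symbols matched in all.

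ENaC is the sodium channel of the apical membrane of the late distal nephron and collecting duct, where it sets the last step of sodium reabsorption. Aldosterone binds the mineralocorticoid receptor in these cells and raises the transcription of SGK1, a kinase that phosphorylates the ligase NEDD4L and so keeps it from removing ENaC from the membrane. The glucocorticoid receptor binds the same DNA elements as the mineralocorticoid receptor, and several of the target genes are used as readouts of either hormone.

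The promoter sequences of RefSeq (GRCm38.p6) are shown for Sgk1 and Tsc22d3, which had the widest gap between the groups of the genes measured above background on all arrays and whose windows hold a corticosteroid motif, and for Scnn1b, a channel subunit gene with none. Each is the 250 bases before an annotated transcript start, read in the direction of the gene, and capitals mark matches to the motifs searched. The Sgk1 window is chr10:21993640-21993889 (plus strand), the Tsc22d3 window is chrX:140600523-140600772 (minus strand) and the Scnn1b window is chr7:121864788-121865037 (plus strand). The Sgk1 window lies inside the gene as annotated, downstream of 4 other annotated starts, and the Tsc22d3 and Scnn1b windows lie just outside their genes and in no other gene of the RefSeq table.
Sgk1: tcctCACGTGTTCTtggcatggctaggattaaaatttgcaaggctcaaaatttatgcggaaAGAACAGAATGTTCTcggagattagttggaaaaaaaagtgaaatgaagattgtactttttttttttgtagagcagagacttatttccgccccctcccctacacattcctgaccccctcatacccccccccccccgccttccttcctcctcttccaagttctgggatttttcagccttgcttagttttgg
Tsc22d3: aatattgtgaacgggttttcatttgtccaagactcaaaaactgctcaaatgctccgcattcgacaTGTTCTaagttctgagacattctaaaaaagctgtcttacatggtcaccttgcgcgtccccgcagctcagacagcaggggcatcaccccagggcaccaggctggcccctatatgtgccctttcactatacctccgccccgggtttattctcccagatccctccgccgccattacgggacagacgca
Scnn1b: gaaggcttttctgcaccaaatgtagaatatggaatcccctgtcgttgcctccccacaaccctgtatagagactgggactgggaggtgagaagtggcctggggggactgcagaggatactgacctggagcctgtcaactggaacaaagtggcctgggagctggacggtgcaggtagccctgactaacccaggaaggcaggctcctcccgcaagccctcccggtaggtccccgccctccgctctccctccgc

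The motifs were the full corticosteroid response element (GNACA and TGTNC with 3 bases between them), its half-site AGAACA, the E-box CACGTG bound by clock factors and the cAMP response element TGACGTCA, each searched on both strands. The Sgk1 window holds a full element, GAACAGAATGTTC, whose first base lies 188 bases before the start, and this element overlaps 2 of the window's 3 half-sites, each of which runs 1 base past it, while the third half-site overlaps an E-box at the far end. A full element is found in 127 of 32851 promoter windows of the same length (0.387%), and in 1 of the 15 windows of these genes. Half-sites are found in 16.1% of all windows and in 4 of the 15, of which 3 are Sgk1 windows and 1 is the Tsc22d3 window shown. E-boxes are found in 6.02% of all windows and in 1 window each of Sgk1, Per1 and Fkbp5, and cAMP response elements in 1.55% of all windows and in 0 of the 15. The 15 windows belong to 7 genes, 6 of them to Sgk1, 3 to Tsc22d3 and 2 to Per1, so that windows of 1 gene are not independent. Windows of Scnn1a, Hsd11b2 and Nedd4l were not used here. A match describes the letters only, and no binding was measured.

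Levels are given as log2 of the processed signal over its array's 75th percentile, and every difference is BDL minus sham on that scale. The share of spots called well above background ran from 57.7% to 63.1% over the 4 arrays. Before the genes are described, the arrays that stood apart are named. BDL replicate 1 had a summed level of 7 urothelial marker genes (signal divided by the array's 75th percentile) of 58.1, against 1.34 on the other BDL array and 2.77 and 8.29 on the sham arrays. Its adipocyte marker Cfd was also the highest, at a log2 level of 6.41 against -4.19 in BDL replicate 2 and 1.61 and -2.54 in sham. Sham replicate 1 had the highest summed level of 9 interferon response genes, 29.9 against 9.21 and 6.99 on the BDL arrays and 11.6 on the other sham array. These genes also differed by group, with 8 of 9 separate and lower in BDL (18.5% of all probes) and a median of -1.56, or -0.80 without sham replicate 1, and their part in the values of the 10 genes was not tested. Slc14a2, which encodes a urea transporter of the inner medulla, was at -3.14 and 1.69 in BDL and at 0.50 and 3.81 in sham, so that the arrays differed in this marker within each group. The results below are therefore also given with single arrays left out.

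Across the array 0 of the 32280 probes retained passed a limma adjusted p of 0.05 (0%), and 1823 (5.65%) had an unadjusted p under 0.05. Of the 10 genes 0 passed the adjusted threshold, with limma adjusted p between 0.801 and 0.998. Scnn1g was well above background on the BDL arrays alone, so it passed the filter only where it was high and is left out of the counts that follow. Of the 9 other genes, Sgk1 and Tsc22d3 had an unadjusted p under 0.05, both with higher values in BDL (2.71% of all probes higher and 2.94% lower at that p). The values below are given as measured, with no difference called. By the brightest probe of each gene, 8 of these 9 had a higher mean in BDL, with 49.9% of all probes having a positive difference. In 4 genes the lower BDL value was above the higher sham value (Scnn1a, Scnn1b, Sgk1 and Tsc22d3), against 18.2% of all probes, and in 0 genes were the groups separate the other way (18.5% of all probes). The median difference was 0.38 over the 9 genes, beside -0.00034 over all probes, and over all 10 it was 0.47 as fitted or 0.37 with Scnn1g at its bound (below). In bulk tissue, more cells of a type and more RNA per cell cannot be told apart.

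**Figure D1:**
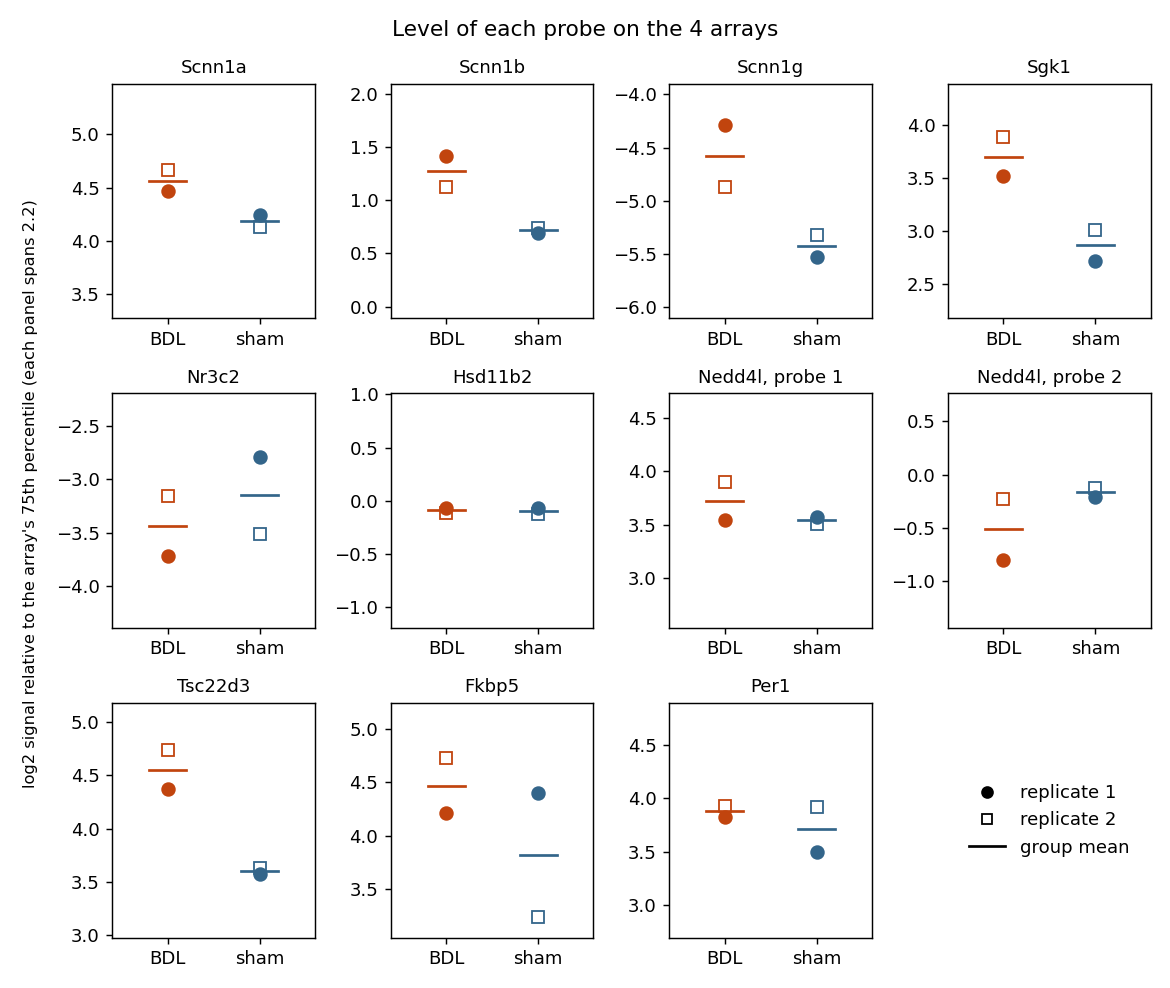
Level of each of the 11 probes (log2 signal relative to the array's 75th percentile, vertical axis) in BDL (left, orange) and sham kidneys (right, blue). Filled circles are replicate 1, open squares replicate 2, and lines the group means. The BDL points lie above the sham points for Scnn1a, Scnn1b, Sgk1, Tsc22d3 and Scnn1g, whose sham points are not well above background, and just below them for the dimmer Nedd4l probe, while those of Hsd11b2 coincide.

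Of the 3 subunit genes of the channel, Scnn1a and Scnn1b were higher on both BDL arrays than on both sham arrays, and Scnn1g had only a limit in sham. Scnn1a, which encodes the alpha subunit needed for the channel to reach the membrane, was at 4.47 and 4.67 in BDL, against 4.24 and 4.13 in sham. The groups were 0.22 apart at their nearest, close to the 0.20 between the BDL arrays. The difference was 0.38 (1.30-fold, SE 0.20), and its 95% interval ran from -0.16 to 0.92 with a limma adjusted p of 0.868. Of all probes, 13.7% had a difference at least as high. Scnn1b, the beta subunit gene, was at 1.42 and 1.12 in BDL, against 0.69 and 0.74 in sham. Its sham arrays lay 0.04 apart and its groups 0.39 apart, and the difference was 0.55 (1.47-fold, SE 0.21, adjusted p = 0.867, interval -0.01 to 1.12).

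Scnn1g, the gamma subunit gene, was dim on this array. Its processed signal was 37.9 and 32.3 units in BDL, well above background on both arrays, against 15.5 and 21.3 units in sham, not well above background on either array. On the log2 scale these were -4.29 and -4.87 in BDL, against -5.52 and -5.32 in sham. The sham level is therefore a limit. With the lowest signal well above background on each sham array standing for its sham value, Scnn1g was 1.29-fold higher in BDL, called its bound. That bound depends on the background correction and has no test. Group means were -4.58 in BDL and -5.42 in sham, and the limma adjusted p of 0.864 belongs to the fitted difference of 0.84. Scnn1g passed the filter only through the BDL arrays. With normexp background correction, which adds an offset before the log, its difference was 0.14 in place of 0.84, and so below the bound.

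Scnn1a and Scnn1b kept a positive difference whichever array was left out. Scnn1a ranged from 0.28 to 0.48 and Scnn1b from 0.41 to 0.70. Without BDL replicate 1, the array with the high urothelial markers, Scnn1b was at its lowest value, 0.41, and Scnn1a at its highest, 0.48. The part of these markers in the values was not tested.

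The kinase gene of the pathway was also separate between the groups. Sgk1, whose product relays the aldosterone signal to NEDD4L, was at 3.52 and 3.88 in BDL, against 2.72 and 3.01 in sham. The nearest BDL and sham arrays were 0.50 apart, more than the 0.37 within BDL and the 0.29 within sham. The difference was 0.83 (1.78-fold, SE 0.24, adjusted p = 0.864, interval 0.19 to 1.48), and 3.09% of all probes had one at least as high. Nedd4l, which encodes the ligase that marks ENaC for removal, had 2 probes of the same accession that disagreed in sign. The brighter probe was at 3.54 and 3.90 in BDL, against 3.57 and 3.51 in sham, with overlap and a difference of 0.18 (SE 0.22, adjusted p = 0.915). The dimmer probe was at -0.80 and -0.22 in BDL, against -0.21 and -0.12 in sham, a difference of -0.35 (SE 0.27, adjusted p = 0.883). Its groups were 0.02 apart at their nearest, and without BDL replicate 1 the difference was -0.06.

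The receptor and the enzyme that guards it showed no separation. Nr3c2, the mineralocorticoid receptor gene, was at -3.72 and -3.16 in BDL, against -2.79 and -3.51 in sham. The arrays of each group were 0.56 and 0.72 apart, wider than the difference of -0.29 (SE 0.36, adjusted p = 0.911), and its sign turned to 0.07 without sham replicate 1. Hsd11b2, whose product inactivates glucocorticoids so that aldosterone can occupy the receptor, was at -0.06 and -0.12 in BDL, against -0.07 and -0.12 in sham. Its difference was 0.0046 (SE 0.19, adjusted p = 0.998), with an interval from -0.50 to 0.51, or 0.707-fold to 1.42-fold.

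**Figure D2:**
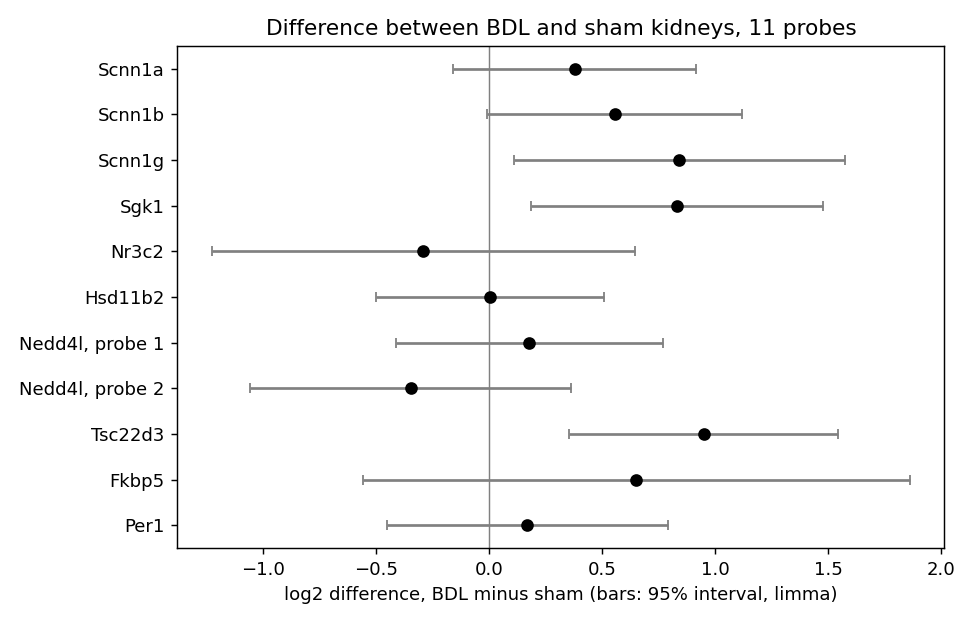
Difference between BDL and sham kidneys (log2, BDL minus sham, horizontal axis) for each of the 11 probes, with the 95% interval from limma. Unadjusted intervals of Scnn1g, Sgk1 and Tsc22d3 lie above 0, and those of the other 8 probes span it; Scnn1g was not well above background in sham, so its fitted value is not a measured fold.

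Of the steroid-responsive genes, Tsc22d3 had the most separate groups. Tsc22d3 encodes GILZ, a leucine zipper protein induced by corticosteroids that promotes ENaC surface expression in the collecting duct. It was at 4.37 and 4.73 in BDL, against 3.57 and 3.63 in sham. The groups were 0.74 apart at their nearest, with 0.37 between the BDL arrays and 0.06 between the sham arrays. The difference was 0.95 (1.93-fold, SE 0.23, adjusted p = 0.801, interval 0.36 to 1.54), and it ranged from 0.77 to 1.13 with 1 array left out.

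Fkbp5 encodes a co-chaperone of steroid receptors that is itself induced through them. It was at 4.21 and 4.72 in BDL, against 4.40 and 3.24 in sham, so that sham replicate 1 lay between the BDL arrays. The difference of 0.65 (SE 0.46, adjusted p = 0.877) rests on sham replicate 2, being 0.07 without that array and 1.23 without sham replicate 1. Per1, a clock repressor gene that aldosterone induces in collecting duct cells, was at 3.82 and 3.93 in BDL, against 3.50 and 3.92 in sham. Its groups overlapped, with a difference of 0.17 (SE 0.24, adjusted p = 0.923) that was -0.04 without sham replicate 1.

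**Figure D3:**
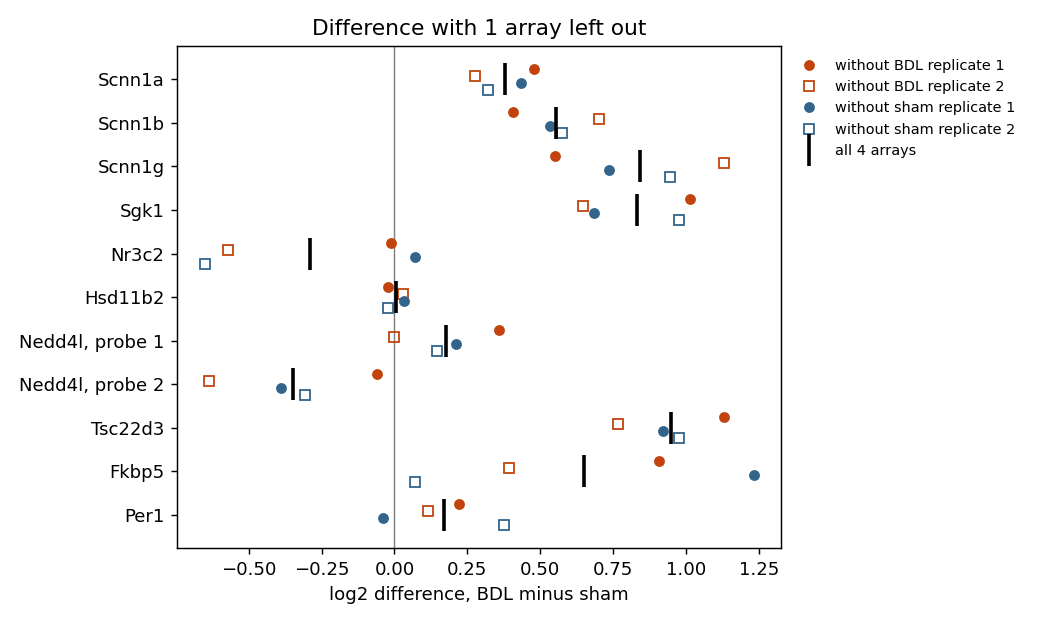
Difference between BDL and sham kidneys (log2, BDL minus sham, horizontal axis) for the 11 probes on all 4 arrays (black bars) and with 1 array left out. Orange symbols leave out a BDL array and blue symbols a sham array. Scnn1a, Scnn1b, Sgk1, Tsc22d3 and Fkbp5 stay above 0 throughout, Fkbp5 with a range from 0.07 to 1.23, and the Scnn1g values are fitted against sham signals not well above background.

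Among the 55 pairs of probes, Sgk1 and Tsc22d3 had the most alike pattern over the 4 arrays, with a distance of 0.20 between their centred log2 values. Of the subunit genes, Scnn1b and Scnn1g were 0.37 apart, Scnn1a and Scnn1b 0.41, and Scnn1a and Scnn1g 0.76. The distances of Scnn1g rest on sham signals not well above background. Scnn1a lay closer to the brighter Nedd4l probe (0.23) than to Scnn1b or Scnn1g, and Hsd11b2 was 0.34 from that Nedd4l probe. Of probes of other genes, those nearest to Sgk1 were Fam71b (0.11), Metap1d (0.11) and Ago1 (0.11), and 46 of 19594 lay within 0.25. Those nearest to Scnn1a were Haus7 (0.029), Akap1 (0.030) and Acbd5 (0.033), with 898 within 0.25. Likeness over 4 arrays is given as a description only.

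Markers of the cells that carry ENaC are given beside the subunits. All 7 principal cell markers were measured, and in 0 of them were the groups separate, with 4 higher and 3 lower in BDL and a median difference of 0.02, which was -0.29 without sham replicate 1 and 0.36 without sham replicate 2. Their summed level was 61.9 and 64.5 in BDL, against 47.4 and 105 in sham. Aqp2, the vasopressin-regulated water channel gene, was at 3.92 and 3.60 in BDL, against 2.78 and 4.03 in sham (0.35, SE 0.46, adjusted p = 0.918). The basolateral water channel gene Aqp3 differed by 0.03 (SE 0.29) and the vasopressin receptor gene Avpr2 by 0.02 (SE 0.27).

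Markers of the distal convoluted and connecting tubule, of which the connecting tubule also carries ENaC, were higher in BDL in 6 of 6 genes, with a median of 0.52. In 3 of them the groups were separate (18.2% of all probes), and their summed level was 47.2 and 48.5 in BDL, against 49.0 and 21.9 in sham. Slc12a3, the thiazide-sensitive sodium chloride transporter gene, was at 3.23 and 3.11 in BDL, against 2.66 and 1.71 in sham (0.99, SE 0.37, adjusted p = 0.867), or 0.52 without sham replicate 2. The median of this list was 0.10 without sham replicate 2 and 1.07 without sham replicate 1. The part of this tubule segment in the values of the subunits was not tested.

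Other genes of the pathway were taken from 6 lists, of which none had a member past the adjusted threshold in either direction (0% of all probes). Proteases and protease inhibitors that act on ENaC had 6 genes higher and 4 lower in BDL of 10 measured, with a median of 0.04. Prss8, which encodes the channel-activating protease prostasin, differed by 0.0026 (SE 0.23, adjusted p = 0.999) and Furin, which cleaves the alpha and gamma subunits during their maturation, by -0.13 (SE 0.22). Groups were separate only in Spint2, a protease inhibitor gene higher in BDL (18.2% of all probes were separate and higher).

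Regulators of ENaC trafficking and its kinases had 10 genes higher and 10 lower of 20 measured, with a median of 0.01. Cnksr3, a scaffold gene induced by aldosterone that assembles SGK1 with ENaC, was at 1.27 and 0.85 in BDL, against 0.33 and 0.23 in sham (0.78, SE 0.24, adjusted p = 0.864). By the brightest probes, Cnksr3 was the 1 gene of the list separate and higher in BDL. By the same probes 4 were separate and lower, Sgk3, Usp8, Tsc22d4 and Ywhae (18.2% higher and 18.5% lower over all probes). Kinases related to SGK1 are encoded by Sgk2 and Sgk3. Sgk2 differed by -0.05 (SE 0.21, adjusted p = 0.977). The 2 probes of Sgk3 disagreed, the brighter at -0.38 (SE 0.23, adjusted p = 0.868) and the dimmer at 0.47. The dimmer probe had separate groups too, but higher in BDL. Usp2, a deubiquitylase gene induced by aldosterone, differed by 0.19 (SE 0.26) and Tsc22d1, of the same family as Tsc22d3, by 0.04 (SE 0.30).

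Genes listed for sodium, potassium and water transport of the collecting duct had 5 genes higher and 6 lower of 11 measured, with a median of -0.06. The list includes Slc12a3, given above as a marker of the distal convoluted and connecting tubule, so that gene is counted in both. Kcnj1, the potassium channel gene ROMK through which the potassium exchanged for sodium leaves the cell, was at 5.54 and 5.42 in BDL, against 5.21 and 5.86 in sham (-0.06, SE 0.29, adjusted p = 0.977). Groups were separate and higher in 2 genes, Slc12a3 and Kcnj10 (18.2% of all probes), and separate and lower in 2 (18.5%).

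Receptor, chaperone and coregulator genes had 5 genes higher and 8 lower of 13 measured, with a median of -0.09. Nr3c1, the glucocorticoid receptor gene, was at 4.27 and 4.43 in BDL, against 4.55 and 4.55 in sham by its brighter probe (-0.20, SE 0.20, adjusted p = 0.898), while its dimmer probe differed by 0.19. Fkbp4, the counterpart of Fkbp5 among the receptor's co-chaperones, differed by -0.21 (SE 0.22, adjusted p = 0.900). Groups were separate and lower in Nr3c1, Hsp90aa1, Hsp90ab1 and Hsd11b1 (18.5% of all probes), and separate and higher in Ncor1 (18.2%). Hsp90aa1 and Hsd11b1 were barely so. Hsp90aa1 was at 4.79 and 4.81 in BDL, against 5.66 and 4.83 in sham. Hsd11b1 was at 4.90 and 5.14 in BDL, against 7.21 and 5.15 in sham.

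Of 18 further genes known to be induced by corticosteroids, 14 were higher and 4 lower in BDL, with a median of 0.15. That median depended on single arrays, being 0.26 without sham replicate 1, 0.34 without sham replicate 2, 0.23 without BDL replicate 1 and 0.49 without BDL replicate 2. In 8 of them the groups were separate and higher in BDL (18.2% of all probes) and in 0 separate and lower (18.5%). Zbtb16, which encodes the transcription factor PLZF, was at 1.75 and 2.16 in BDL, against 1.35 and -0.60 in sham (1.58, SE 0.68, adjusted p = 0.867). Its low sham replicate 2 is the array in which Fkbp5 was low too, and the difference was 0.60 without it. Klf9, an immediate target of the glucocorticoid receptor, was at 4.48 and 4.56 in BDL, against 4.68 and 4.33 in sham (0.02, SE 0.22, adjusted p = 0.991).

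Of 13 clock genes that work with Per1, 8 were higher and 5 lower in BDL, with a median of 0.01, Cry1 included. Per2 was at 0.38 and 1.13 in BDL, against -0.22 and 0.03 in sham (0.85, SE 0.32, adjusted p = 0.867), or 0.47 without BDL replicate 2, and Per3 differed by 0.26 (SE 0.27, adjusted p = 0.901). Groups were separate and higher in Per2, Arntl and Bhlhe40 (18.2% of all probes), and separate and lower in Nr1d1 and Dbp (18.5%). Cry1 was well above background on the BDL arrays alone and passed the filter only through them. Its place among the 13 and the 8 therefore rests on the group where it was high. The time of day at which the kidneys were taken is not given in the sources used here, and its part in the values of Per1 and the other steroid-responsive genes was not tested.

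**Figure D4:**
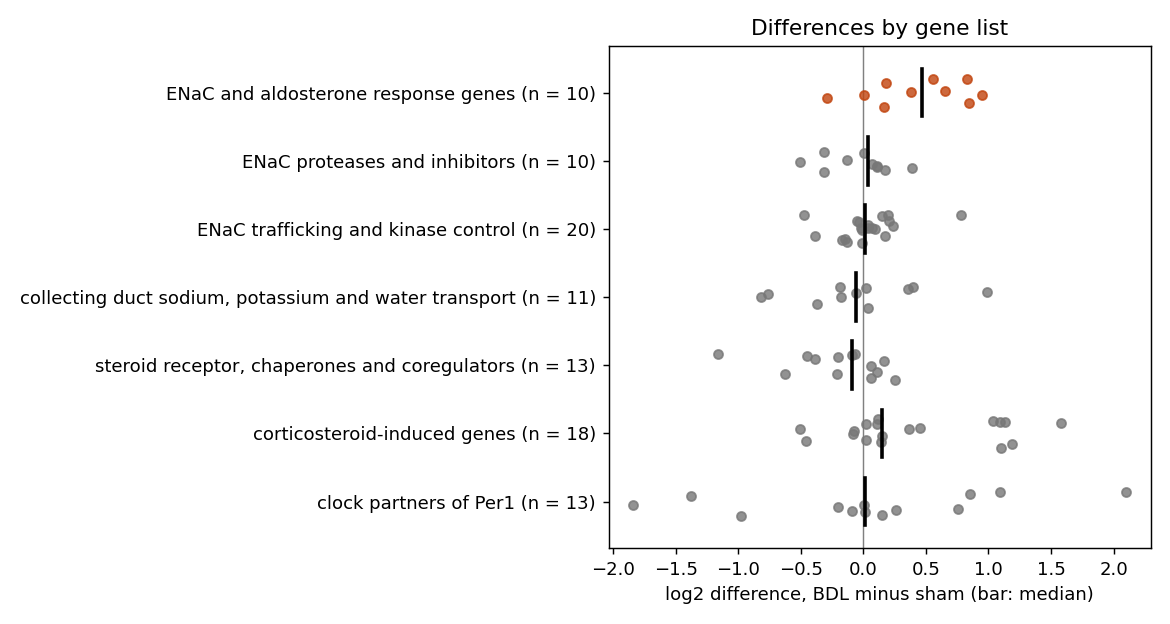
Difference between BDL and sham kidneys (log2, BDL minus sham, horizontal axis) of the 10 ENaC and aldosterone response genes (orange) and of 6 lists of related genes (grey), 1 point per gene by its brightest probe, with the median of each list as a bar. The medians of the 6 lists lie between -0.09 and 0.15, and that of the 10 genes at 0.47 with Scnn1g at its fitted value. It is 0.37 with Scnn1g at its bound and 0.38 over the 9 other genes. Without BDL replicate 2 the corticosteroid-induced list is at 0.49 and the 10 genes, with Scnn1g as fitted, at 0.34. Without sham replicate 2 they are at 0.34 and 0.35.

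Tsc22d3 and Fkbp5 are also expressed in leukocytes and Sgk1 in many cell types, so leukocyte markers are given beside them. T cell markers were lower in BDL in 5 of 6 genes, with a median of -0.64 (-1.11 if sham replicate 2 is left out and -0.28 if sham replicate 1 is) and a summed level of 4.85 and 3.91 in BDL, against 6.83 and 4.94 in sham. Macrophage markers had a median of -0.08 (0.48 without sham replicate 1 and -0.59 without sham replicate 2), with a summed level of 61.1 and 55.2 in BDL, against 68.6 and 59.1 in sham. B cell markers had a median of -1.03, with 0 of 4 measured genes higher in BDL. All 4 were well above background on both sham arrays but only 2 on both BDL arrays, so some passed the filter only through sham. Neutrophil markers went the other way, with a median of 1.12 (0.47 if sham replicate 2 is left out and 1.77 if BDL replicate 2 is) and a summed level of 36.7 and 18.5 in BDL, against 18.8 and 5.38 in sham, and their part in the values of Tsc22d3, Fkbp5 and Sgk1 was not tested. Of 7 adrenal cortex markers, 4 were not well above background on any array, among them Cyp11a1, Cyp11b1 and Cyp11b2, the last of which encodes aldosterone synthase. The 3 others, Cyp21a1, Star and Hsd3b1, had a summed level of 0.447 and 0.519 in BDL, against 0.415 and 0.548 in sham. Among other cells, groups were separate and higher in BDL in 5 of 5 podocyte genes (median 0.58), 4 of 7 intercalated cell genes (median 0.64, or 0.30 without sham replicate 1) and 4 of 4 measured red blood cell genes (median 2.04, or 1.31 without BDL replicate 1), beside 18.2% of all probes. Thick ascending limb markers were higher in BDL in 0 of 4 genes (median -0.24, or 0.14 without sham replicate 2). Inner medulla markers were higher in 1 of 5 (median -0.05, or -0.88 without sham replicate 1), and that 1 was Hsd11b2, itself among the 10 genes. Proximal tubule markers were higher in 3 of 6 (median -0.01) and endothelial markers in 4 of 5 (median 0.16, or -0.10 without sham replicate 1). The part of these cells in the values of the 10 genes was not tested.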

How the data were processed

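Total RNA of 4 mouse kidney samples was labelled with Cy3 and hybridised to 1-colour Agilent arrays, per the labels' protocols. The scans were read with Agilent Feature Extraction, which the submitters' processing notes give as version 11.0.1.1. Per the file headers, a spatial background surface was fitted to each array, and the deposited processed signal is a linear intensity that still differs in overall level from array to array. All arrays share a slide and a scan, so neither could be fitted as a batch, and the number of arrays limits the precision. Each array's log2 signal was set against its 75th percentile. Left out were control spots and outlier-flagged spots, 0 spots were saturated, and spots of a probe were averaged. Of 55668 probes analysed, 27229 were named by matching accessions, without versions, to a RefSeq table (GRCm38.p6). The array grid lists mm9, so the promoter coordinates belong to the RefSeq build only, and probe sequences were not used here. A probe was retained if both BDL or both sham arrays had it well above background, which left 32280 probes. These were fitted with limma 3.58.1 in R 4.3.3 by operation alone (lmFit, then eBayes), and two-sided p-values were adjusted over all of them by Benjamini-Hochberg. Where a gene has several probes, the text gives the brightest one retained (by mean level over the 4 arrays), except that every probe of the 10 genes is given. Separate groups means that both values of one group lie above both of the other, a description with no test. Distances are Euclidean, over 4 arrays, between log2 values centred on each probe's mean. Tested on simulated data, the fit returned the sign and size of known changes. The smallest changes simulated, of 1 log2 unit, did not pass the adjusted threshold with 2 arrays per group. The differences of the 10 genes were smaller than that and their sizes were not simulated, so a count of 0 does not show that these genes did not differ. The deposited series table also gives linear intensity values, and a comparison with the scanner files showed that each of its columns is the same signal over a single divisor. What that divisor was set on is unknown, but on each array it was close to the 75th percentile signal used here. The divisors were 739 and 940 for BDL, beside percentiles of 741 and 945, and 709 and 844 for sham, beside 712 and 849. The deposited table is therefore close to the same normalization. Its column medians were 0.329 and 0.330 for BDL and 0.328 and 0.339 for sham. Like the pathway and marker lists, the 10 genes were chosen with earlier results of these data known. Named are all 10 genes, 19 genes of the lists taken for their role (1 of which is not reported here), and the 3 probes of other genes nearest to Sgk1 and to Scnn1a. Any list or marker gene named beyond these was picked with its values in view. Alternatives were the background correction, the normalization, the filter, the choice of probes, the deposited table, array weights, a replicate block and each array left out.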

Additional observations from a re-analysis of the deposited data

How the results depend on the processing

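Under each of the 14 alternatives 0 probes of the array and 0 of the 10 genes passed an adjusted p of 0.05. The median difference over the 10 genes (0.47, with Scnn1g at its fitted value) was 0.32 with normexp. It was 0.38 among probes well above background on all 4 arrays, where Scnn1g drops out. With 1 array left out and Scnn1g as fitted, it ranged from 0.34 to 0.48. The number of genes with separate groups (5, Scnn1g included) was 4 among probes well above background on all 4 arrays (35.9% of all such probes separate), 6 with the 75th percentile over probes detected on all arrays (37.5%), and 7 to 8 with 1 array left out, when 60.6% to 77.3% of all probes were separate, since fewer arrays overlap less often. The sign of some differences turned. With normexp Prss8 was at -0.069 and Tsc22d1 at -0.0084, with quantile normalization Sgk2 was at 0.0046, and with the mean over the probes of a gene Nedd4l was at -0.085, Sgk3 at 0.042 and Avpr2 at -0.084. With 1 array left out the range was -0.65 to 0.07 for Nr3c2, -0.023 to 0.032 for Hsd11b2, -0.0014 to 0.36 for the brighter Nedd4l probe, -0.038 to 0.38 for Per1, -0.29 to 0.031 for Furin, -0.19 to 0.20 for Prss8, -0.18 to 0.084 for Sgk2, -0.010 to 0.40 for Usp2, -0.27 to 0.98 for Aqp2, -0.29 to 0.36 for Aqp3, -0.26 to 0.30 for Avpr2, -0.39 to 0.26 for Kcnj1, -0.16 to 0.19 for Klf9, -0.0012 to 0.53 for Per3 and -0.30 to 0.37 for Tsc22d1. The cause was not tested. The replicate numbers share no stated litter or batch, and same-numbered arrays deviated together with a correlation of 0.070 across probes. With the replicate block 0 probes and 0 of the 10 genes were called, as without it. With 2 arrays per group, and Scnn1g at background in sham, small differences were not detectable here.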
